A study of Mus musculus with 4 samples.

Results

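Alveolar fibroblasts are the fibroblasts of the gas-exchange walls of the lung, and some of them, the lipofibroblasts, store fat in droplets. The genes described here are 9 markers of these cells: Tcf21, Npnt, Limch1, Inmt, Scn3b, Gyg, Plin2, Enpep and G0s2. They were taken by name from the table of expression values, using array features annotated to exactly 1 gene symbol and, for a gene with several, the one with the highest mean. All 9 were found, each with a single feature, among 30142 genes in all.

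The series holds 4 Affymetrix arrays of total RNA from mouse lung cells that lack CD45, the surface protein of leukocytes. The mice were of the C57BL/6 strain and had received bleomycin (BLM, 2 arrays) or phosphate-buffered saline (PBS, 2 arrays) through the trachea 10 days earlier. Bleomycin damages DNA and is used to induce lung fibrosis in mice. The comparison asks how the non-leukocyte cells differ while fibrosis develops. The labels give neither sex nor age. They also do not say whether both arrays of a treatment came from different animals, and the p-values therefore reflect array-to-array spread that may be technical.

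In the mouse lung, TCF21 is a transcription factor of the fibroblast lineage that includes lipofibroblasts. Lipofibroblasts lie beside the alveolar epithelium, take up fatty acids, coat the resulting droplets with perilipin 2 (Plin2) and pass lipid to the cells that make surfactant. In fibrosis models, alveolar fibroblasts are described as a source of matrix-producing cells. Several of the 9 genes are not limited to these cells: macrophages also make Plin2, for example, and pericytes Enpep.

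On the BLM arrays 7 of the 9 genes rose and 2 fell. Rose and fell are used of genes with an adjusted p under 0.05 in a limma fit over all 30142 genes, of which 25.3% passed, 15.2% higher and 10.1% lower in BLM. None of the 9 genes lay below the median gene level, and brighter genes passed more often. In a fit of the 15071 genes at or above that level, 8050 passed, 4743 higher and 3307 lower in BLM. The shares of all genes, and these counts for brighter genes, are the background for every list count below. The largest rises were those of Scn3b and Gyg, at 7.11-fold and 6.16-fold, followed by Tcf21 at 2.88-fold and Plin2 at 2.64-fold. Enpep fell to 0.491 times its PBS level. The median log2 difference, BLM minus PBS, was 0.90 over the 9 genes and 0.05 over all genes. At a difference of at least 1 log2 unit, 4 of the 9 were higher and 1 was lower, against 2.81% and 2.33% of all genes. The BLM and PBS values did not overlap for any of the 9 genes, 7 being higher and 2 lower. The same was true of 63.3% of all genes, 38% higher and 25.3% lower.

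Facts of the arrays as a whole bear on every value. Xist, the RNA of the inactive X chromosome, lay at 5.60 and 5.43 on the BLM arrays and at 15.86 and 15.61 on the PBS arrays. Transcripts of the Y chromosome went the opposite way, with a BLM minus PBS difference of 2.63 for Eif2s3y, 2.44 for Uty and 2.14 for Kdm5d. Treatment and these differences cannot be told apart. The labels give no sex. Xist was high only on the PBS arrays and these Y transcripts were higher on the BLM arrays, as in female against male cells. Any effect of sex would thus coincide with treatment for every gene. Sex and treatment therefore cannot be separated here, and an effect of sex was not tested. None of the 9 marker genes lies on the X or Y chromosome in the RefSeq table, whereas Egfl6, Maob, Acsl4 and Agtr2, described with them, are X-linked. Ptprc, the gene of CD45, lay at 7.19 and 7.20 on the BLM arrays, against 6.30 and 6.21 on the PBS arrays. Of all genes that passed, 60.1% were higher in BLM, and with cyclic loess scaling this share was 49.6%. In RNA from a mixture of cells, fewer cells of a type and less RNA per cell cannot be told apart.

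**Figure D1:**
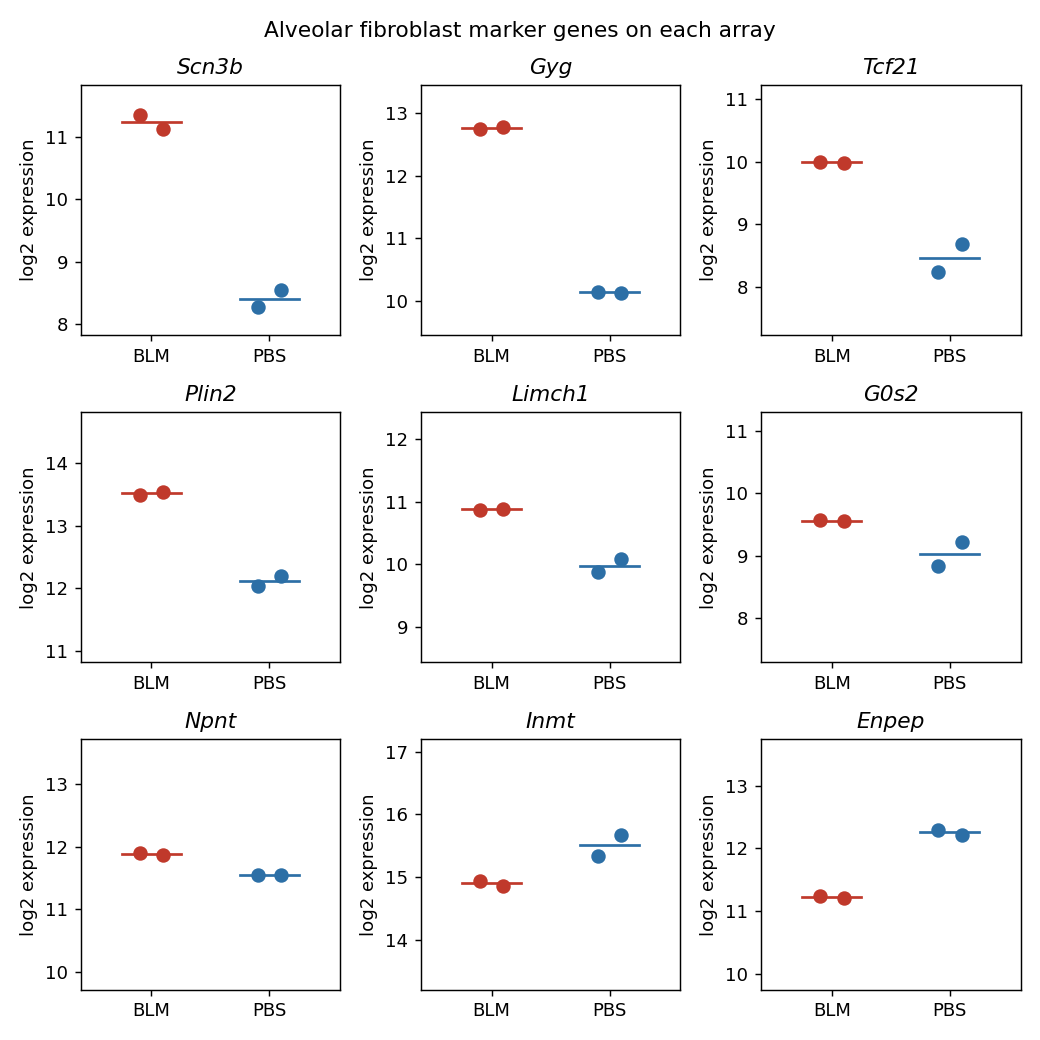
Log2 expression of each marker gene (vertical axis, spanning 4 log2 units in every panel) on the 2 BLM arrays (red, left) and the 2 PBS arrays (blue, right), with the group mean as a line. The BLM arrays lie above the PBS arrays in the first 7 panels and below them for Inmt and Enpep, and the 2 BLM values of a gene are at most 0.222 apart.

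Of the 5 genes that differed by at least 1 log2 unit, 4 have a promoter entry in the RefSeq table of build GRCm38.p6, and these are shown because they carry the large differences. Each is given 5′ to 3′ as the 250 bases before the annotated start, with every E-box, CANNTG on either strand, in capitals. The E-box is the core word bound by factors of the TCF21 class.
Gyg (chr3:20155117-20155366, minus strand): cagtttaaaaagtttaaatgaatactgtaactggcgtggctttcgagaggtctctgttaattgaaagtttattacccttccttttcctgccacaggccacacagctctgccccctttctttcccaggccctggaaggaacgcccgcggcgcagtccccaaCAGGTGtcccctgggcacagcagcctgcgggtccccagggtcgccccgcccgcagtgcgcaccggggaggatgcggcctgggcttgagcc
Tcf21 (chr10:22820144-22820393, minus strand): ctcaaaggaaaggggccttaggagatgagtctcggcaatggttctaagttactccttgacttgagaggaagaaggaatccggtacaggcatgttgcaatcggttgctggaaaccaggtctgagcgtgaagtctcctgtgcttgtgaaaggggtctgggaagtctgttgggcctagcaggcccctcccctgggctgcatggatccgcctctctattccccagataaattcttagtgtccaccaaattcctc
Plin2 (chr4:86670060-86670309, minus strand): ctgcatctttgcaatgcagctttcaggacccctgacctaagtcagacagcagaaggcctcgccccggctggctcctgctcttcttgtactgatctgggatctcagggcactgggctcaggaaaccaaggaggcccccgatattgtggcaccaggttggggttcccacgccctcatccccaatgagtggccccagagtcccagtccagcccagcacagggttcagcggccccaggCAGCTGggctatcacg
Enpep (chr3:129332750-129332999, minus strand): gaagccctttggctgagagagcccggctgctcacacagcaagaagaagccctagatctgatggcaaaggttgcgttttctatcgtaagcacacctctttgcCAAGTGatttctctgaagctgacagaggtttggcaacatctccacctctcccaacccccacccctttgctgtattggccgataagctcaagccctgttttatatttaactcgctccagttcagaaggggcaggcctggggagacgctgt

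The Gyg window held the E-box CAGGTG, the Plin2 window CAGCTG and the Enpep window CAAGTG, while the Tcf21 window held none. Over the 8 of the 9 genes with an entry, which have 11 promoter windows, 8 of the 11 windows held at least 1 E-box, as did 66.2% of all 32851 windows of this length. CAGCTG occurred in 3 of the 11, those of Plin2, Inmt and G0s2, and in 13.0% of all windows. TATAAA, the TATA box, occurred on either strand in 3 of the 11, those of Inmt and Enpep and 1 of 3 of Limch1, and in 12.4% of all windows. These matches describe the letters and are not evidence of binding.

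Tcf21, the lineage factor, had log2 values of 10.00 and 9.98 on the BLM arrays, against 8.24 and 8.69 on the PBS arrays. The BLM arrays were almost level, the PBS arrays were 0.456 apart, and the lower BLM array still lay above the higher PBS array. The difference was 1.53 (SE 0.16, 95% interval 1.12 to 1.93, adjusted p = 0.00266 by limma), placing Tcf21 at rank 304 of 30142 genes from the top.

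TCF21 binds DNA together with an E-protein and can be held back by ID proteins, which lack a DNA-binding region. Its basic helix-loop-helix relatives, the E-proteins and the ID inhibitors gave 15 measured genes, of which 3 rose and 12 did not pass. The share that rose, 20%, was near the 15.2% of all genes. The median of this list was 0.23. In level, 6 of its genes averaged under 6.03, the median of gene levels, Twist1 and Tcf23 among them. Tcf4, an E-protein gene, rose by 1.78 (SE 0.10), and Id3, an inhibitor, by 1.66 (SE 0.13). Twist1, a mesenchymal factor, rose by 0.72, a call that ended without BLM replicate 2 (adjusted p = 0.0551). The E-protein gene Tcf12, which has been described as a partner of TCF21, stood at 0.23 (adjusted p = 0.112). The closest relatives measured, Msc and Tcf23, stood at 0.52 and -0.11 without passing.

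Scn3b encodes a beta subunit that assists voltage-gated sodium channels and also serves in cell adhesion. It lay at 11.35 and 11.13 on the BLM arrays, against 8.27 and 8.55 on the PBS arrays. The groups were separated by far more than the distance between arrays of either group. The difference was 2.83 (SE 0.13, 95% interval 2.49 to 3.17, adjusted p = 0.0004 by limma), rank 47 of all genes, with 0.153% of genes above it.

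Of 10 other sodium channel subunit genes measured, 2 rose, none fell and 8 did not pass, with a median of 0.06. The share that rose, 20%, was near the 15.2% of all genes. Scn7a, an atypical sodium channel, was at 15.80 and 15.65 on the BLM arrays, against 14.53 and 14.60 on the PBS arrays, a rise of 1.15 (SE 0.09, adjusted p = 0.00127 by limma). Scn3a, a pore-forming subunit, rose by 0.94 (SE 0.09). The 8 others lay between -0.04 and 0.21, and each averaged under 6.03, which is the median of gene levels, so they were dim on these arrays.

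Gyg encodes glycogenin, the protein that primes glycogen chains. Its values were 12.75 and 12.78 on the BLM arrays, against 10.15 and 10.14 on the PBS arrays. Both groups were tight, with gaps of 0.0257 between the BLM and 0.0109 between the PBS arrays. The difference of 2.62 (SE 0.08, 95% interval 2.42 to 2.82, adjusted p = 0.00024 by limma) exceeded both gaps many times over.

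The other genes of glycogen metabolism moved in both directions, and most did not pass. Among 14 genes, 3 rose, 3 fell and 8 failed to pass, with a median of 0.04. Gys1, the glycogen synthase that extends the chains glycogenin begins, fell by 0.69 (SE 0.09), with means of 8.37 on the BLM arrays and 9.06 on the PBS arrays. Gbe1, the branching enzyme, fell by 0.68 (SE 0.09). Stbd1, which tethers glycogen to membranes, stood at -0.83 (adjusted p = 0.0431 by limma). The Stbd1 call ended with the replicate block (0.0644) and without PBS replicate 2, BLM replicate 1 or BLM replicate 2. Its difference ran from -1.12 to -0.54 with 1 array left out. On the rising side were Ppp1r3d, a glycogen-targeting phosphatase subunit, at 1.08 (SE 0.08), and the phosphorylase Pygm, which breaks glycogen down, at 0.72 (SE 0.11). The third, Ppp1r3c, another targeting subunit, stood at 0.41 (adjusted p = 0.045 by limma), a call that ended with cyclic loess (0.0661) and without any 1 array (largest 0.21, without BLM replicate 1).

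**Figure D2:**
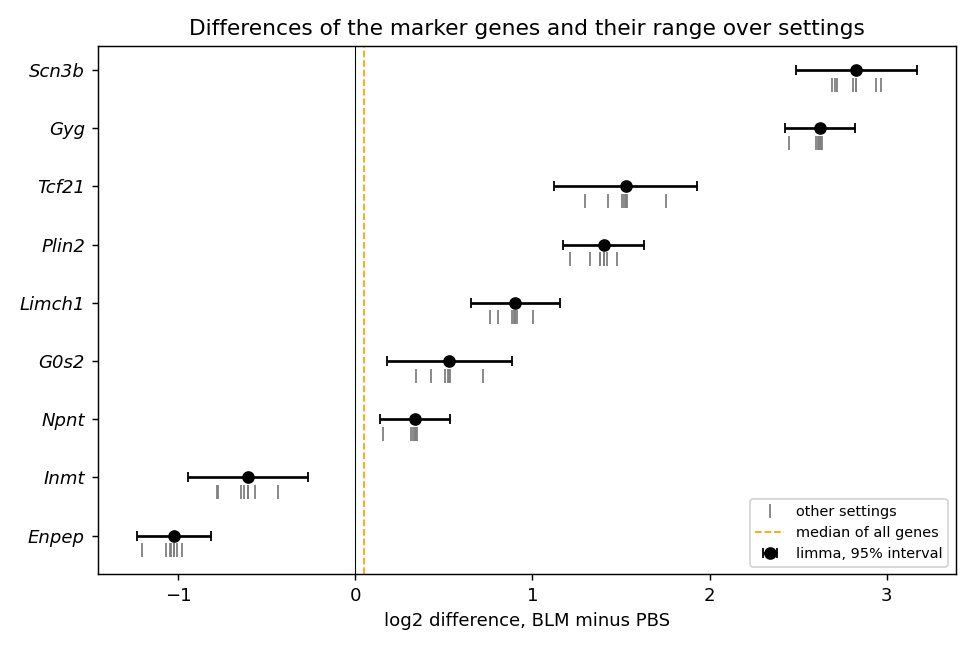
Log2 difference, BLM minus PBS, of each marker gene (black points) with its 95% interval from limma (bars), the values under the 11 other processing settings (grey ticks) and the median of all genes (dashed line, 0.05). Scn3b and Gyg stand apart at the top, and no grey tick crosses 0.

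Plin2 encodes the perilipin that coats lipid droplets in most cells outside fat tissue. It had values of 13.49 and 13.53 on the BLM arrays, against 12.04 and 12.19 on the PBS arrays. The groups lay well apart relative to their gaps of 0.0371 and 0.151. Its rise was 1.40 (SE 0.09, 95% interval 1.17 to 1.63, adjusted p = 0.000768 by limma).

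G0s2 encodes a small inhibitor of the triglyceride lipase ATGL. Its BLM values were 9.56 and 9.55, against PBS values of 8.84 and 9.22. The difference of 0.53 (SE 0.14, 95% interval 0.18 to 0.88, adjusted p = 0.0463 by limma) was the weakest call among the 9 genes. It ended without PBS replicate 1, where the difference was 0.34 (adjusted p = 0.0867), without BLM replicate 1 (0.152) or BLM replicate 2 (0.141), and with median centring (0.0607) or cyclic loess (0.07).

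Around these genes of fat storage, the wider list of droplet and lipolysis genes moved in both directions. Among 27 genes, 5 rose, 9 fell and 13 failed to pass, and the median was -0.08. Those falling numbered 5 without BLM replicate 1 and 4 without BLM replicate 2, and those rising 3 without either of them or without PBS replicate 1. Pnpla2, the gene of ATGL, fell by 0.55 (SE 0.10), with 9.53 and 9.59 on the BLM arrays and 10.02 and 10.20 on the PBS arrays, a call that ended without BLM replicate 1 (adjusted p = 0.0762) or BLM replicate 2 (0.0566). Lpl, the lipase that frees fatty acids from circulating triglyceride, rose by 1.85 (SE 0.10), and Angptl4, a secreted inhibitor of that lipase, by 1.69 (SE 0.09).

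Deepest among the falls on this list was Cebpa, a transcription factor of fat cells and also of alveolar epithelium, at -1.68 (SE 0.09). Pdk4, a kinase that limits glucose oxidation, fell by 1.46 (SE 0.10) and the X-linked Acsl4, a fatty acid activating enzyme, by 1.20 (SE 0.09). The nuclear receptor gene Pparg, a defining factor of lipofibroblasts, was at 6.69 and 6.47 on the BLM arrays and at 6.62 and 6.54 on the PBS arrays. Its groups overlapped, and the difference was -0.001 (95% interval -0.27 to 0.27, adjusted p = 0.995 by limma), with a sign that varied with the array left out. The other perilipin genes, Plin1, Plin3, Plin4 and Plin5, lay between -0.57 and -0.05, and Plin4, at -0.57, alone passed, a call that ended without BLM replicate 1 (adjusted p = 0.0842), PBS replicate 1 (0.0516) or PBS replicate 2 (0.0691).

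Npnt encodes nephronectin, a basement membrane protein that binds the integrin made of the Itga8 and Itgb1 products. It lay at 11.90 and 11.87 on the BLM arrays, against 11.55 and 11.54 on the PBS arrays. The groups did not overlap, and the difference was small, at 0.34 (SE 0.08, 95% interval 0.14 to 0.54, adjusted p = 0.0318 by limma). This call ended when any 1 array was left out (adjusted p = 0.162 and 0.133 with BLM replicates 1 and 2 removed in turn, 0.0874 and 0.0878 with PBS replicates 1 and 2 removed), and with cyclic loess the difference was 0.16 (adjusted p = 0.195).

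Of 7 genes of nephronectin's receptor and partners, 1 rose, 2 fell and 4 did not pass, with a median of -0.17. Itga8 was at 11.79 and 11.76 on the BLM arrays, against 11.94 on both PBS arrays, a difference of -0.17 (95% interval -0.36 to 0.03, adjusted p = 0.198 by limma) that passed only with cyclic loess, at -0.35 (adjusted p = 0.0254). Itgb1 stood at 0.28 (adjusted p = 0.0603). The X-linked Egfl6, the closest relative of nephronectin, fell by 0.91 (SE 0.08), and the basement membrane gene Frem1 rose by 1.21 (SE 0.11). Grip1, an intracellular partner of the Fras1 and Frem proteins, stood at -0.30 (adjusted p = 0.0441 by limma). Its call ended with the replicate block (0.0799), with the trended robust prior (0.0589) and when any 1 array was left out. The difference ran from -0.31 to -0.29 with 1 array left out.

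Limch1 encodes an actin-bound protein that in human cells activates non-muscle myosin II. Its BLM values were 10.87 and 10.89, against PBS values of 9.88 and 10.08. The rise was 0.90 (SE 0.10, 95% interval 0.65 to 1.15, adjusted p = 0.00303 by limma). Of 11 genes of non-muscle myosin II and its regulators, 2 rose, 4 fell and 5 did not pass, with a median of 0.001. Myh10, a non-muscle myosin heavy chain, rose by 0.60 (SE 0.08), while Myh14, another heavy chain, fell by 1.41 (SE 0.13). Only 1 gene of the list rose when any 1 array was left out. Lmo7, which like Limch1 carries a calponin homology and a LIM domain, fell by 1.24 (SE 0.08). The kinase gene Rock1 fell by 0.65 and the myosin phosphatase subunit gene Ppp1r12a by 0.61. Myh9 was not analysed here.

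Enpep encodes aminopeptidase A, a surface enzyme that cleaves angiotensin II. It had values of 11.25 and 11.21 on the BLM arrays, against 12.30 and 12.21 on the PBS arrays. The groups were separated by more than the gap within either, and the difference was -1.03 (SE 0.08, 95% interval -1.24 to -0.82, adjusted p = 0.00132 by limma).

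Among other surface peptidases, some fell beside Enpep and Ace rose. Of 10 measured genes of the angiotensin pathway and surface peptidases, 2 rose, 3 fell and 5 did not pass, with a median of 0.14. Anpep, or aminopeptidase N, fell by 1.24 (SE 0.09), Mme, or neprilysin, by 1.08 (SE 0.08), and Dpp4 by 0.96 (SE 0.10). Ace, the angiotensin-converting enzyme of endothelium, rose by 0.83 (SE 0.12), and Erap1, a peptidase of the endoplasmic reticulum, by 0.66 (SE 0.10). The angiotensin receptor genes Agtr1a, Agtr1b and Agtr2 lay between 0.12 and 0.25 and did not pass.

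Inmt encodes an enzyme that methylates indole amines such as tryptamine. It was at 14.94 and 14.86 on the BLM arrays, against 15.33 and 15.68 on the PBS arrays. The groups did not overlap, although the PBS arrays were 0.343 apart. The difference was -0.61 (SE 0.13, 95% interval -0.94 to -0.27, adjusted p = 0.0267 by limma). It lay between -0.78 and -0.43 with 1 array left out and the call ended without BLM replicate 1 (adjusted p = 0.0836), without BLM replicate 2 (0.11) and without PBS replicate 2 (0.0547).

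Of 10 other methyltransferase and tryptamine enzyme genes, 2 rose, 3 fell and 5 did not pass, with a median of 0.05. Of all genes, 15.2% rose and 10.1% fell. Gnmt, which methylates glycine, fell by 2.14 (SE 0.10), and the X-linked Maob, a monoamine oxidase, by 1.65 (SE 0.08). Hnmt, which methylates histamine, stood at -0.87 (adjusted p = 0.0308) and lost its call without PBS replicate 2 (0.0515), BLM replicate 1 (0.0652) or BLM replicate 2 (0.117). Tpmt and Nnmt, which methylate thiopurines and nicotinamide, rose by 0.83 (SE 0.08) and 0.69 (SE 0.10).

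**Figure D3:**
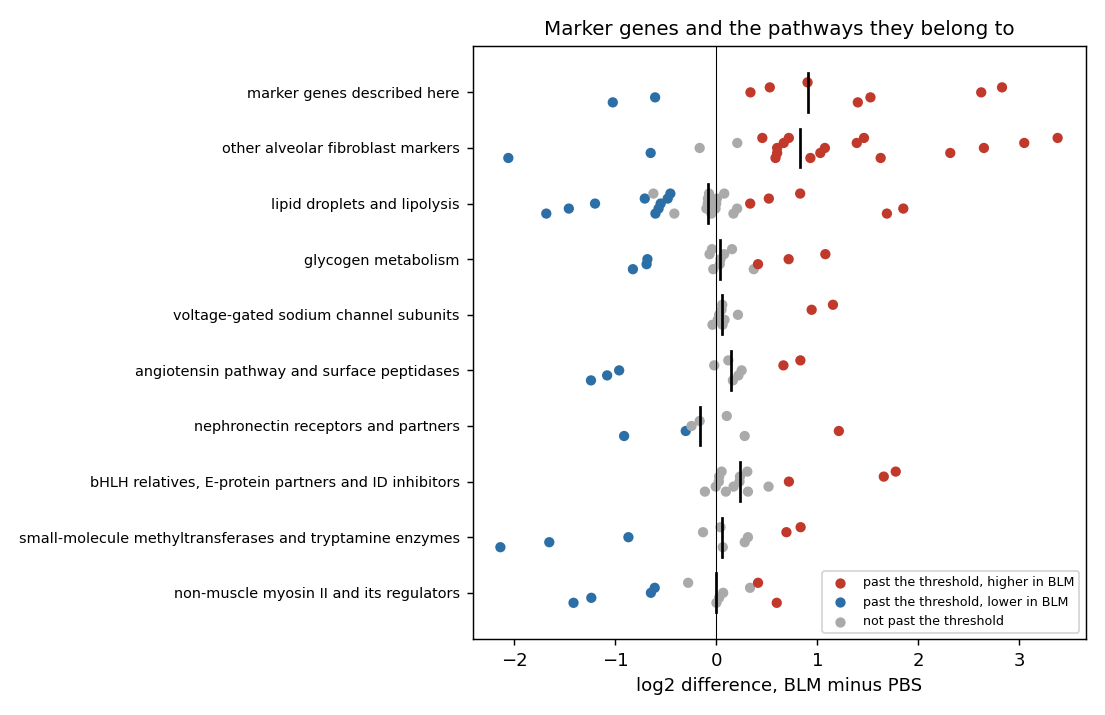
Log2 difference, BLM minus PBS (horizontal axis), of the 9 marker genes and of the genes in 9 related lists (rows); each point is a gene, coloured by its limma call, and black bars are list medians. The 2 lists of alveolar fibroblast markers have medians of 0.90 and 0.82, while the 8 others lie between -0.17 and 0.23.

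In order of their differences the 9 genes ran from Scn3b through Gyg, Tcf21, Plin2, Limch1, G0s2, Npnt and Inmt to Enpep. Between neighbours, the 95% intervals were apart at 3 steps, from Gyg to Tcf21, from Plin2 to Limch1 and from Npnt to Inmt, and overlapped at the 5 others. Scn3b and Gyg differed from each other by 0.21 in their response, and the Scn3b to Gyg log ratio overlapped between the BLM and PBS arrays. The same held for Tcf21 and Plin2, at 0.13, and for G0s2 and Npnt, at 0.19.

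For 7 of the 9 genes the PBS arrays lay farther apart than the BLM arrays, as they did for 55.2% of all genes. The gap between the 2 BLM arrays had a median of 0.0257 over the 9 genes, against 0.198 between the 2 PBS arrays, where over all genes the medians were 0.0974 and 0.115. PBS replicate 2 lay above PBS replicate 1 for 6 of the 9 genes and for 16 of 20 other alveolar fibroblast markers, compared with 47.2% of all genes. For 5 of the 6 genes, all but Inmt, the higher PBS array was thus the one nearer to the BLM arrays. Leaving out PBS replicate 1 lowered the Tcf21 difference to 1.30, and leaving out PBS replicate 2 gave 1.75.

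Among 20 other markers of alveolar fibroblasts, 16 were called higher and 2 lower, and the median was 0.82. The 16 include the X-linked Vegfd and Gpc3, and without genes of the X and Y chromosomes 14 rose. Over the settings tried, 13 to 16 rose and 2 to 3 fell. Cxcl14, a chemokine gene, had values of 12.84 and 12.88 on the BLM arrays, against 9.32 and 9.64 on the PBS arrays, a rise of 3.38 (SE 0.13, adjusted p = 0.000294 by limma). Bmper, a secreted BMP modulator, rose by 3.05 (SE 0.08), the mesenchymal cadherin gene Cdh11 by 2.65 (SE 0.09) and Mfap4, of elastic fibres, by 2.32 (SE 0.13). Against these, the carboxylesterase gene Ces1d fell by 2.06 (SE 0.09), with 13.49 and 13.46 on the BLM arrays and 15.61 and 15.47 on the PBS arrays. As among the 9 genes, most of the list thus rose and a minority fell. Of all genes, 15.2% were called higher and 10.1% lower. Only 2 of the 20 genes averaged under the median gene level. In the fit of the 15071 genes at or above that level, 4743 were called higher and 3307 lower. Pdgfra was not analysed here.

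By the distance between centred log2 values over the 4 arrays, the genes nearest to Tcf21 among 18312 searched were Lgals9, a galectin, at 0.0371 and Selenom, a selenoprotein, at 0.0914. Nearest to Scn3b were Mgp, matrix Gla protein, at 0.103 and the cell cycle inhibitor Cdkn1a at 0.137. Those nearest to Gyg were Cdh11 at 0.114 and the guidance receptor Robo2 at 0.116. Plin2 had Tbc1d7 at 0.0363 and the hypoxia-responsive Ndrg1 at 0.0404, and Enpep had the kinase Prkci at 0.0230 and the nuclear RNA Malat1 at 0.0310. With 2 groups of 2 arrays, such likeness mainly reflects an equal difference between the groups.

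Markers of other cell types moved on the same arrays, and their part in the differences of the 9 genes was not tested. Of 5 pan-fibroblast markers, 4 rose and none fell, with Col1a2, a collagen I chain, up by 3.12 and Dcn, decorin, at 0.28 without passing. All 9 markers of activated fibroblasts rose, with a median of 3.60. Their summed linear signal, here and for the lists that follow in units of 1000, was 273 to 283 on the BLM arrays, against 17.9 to 18.3 on the PBS arrays. Fn1, with means of 17.75 in BLM and 13.61 in PBS, made up most of this sum. Most of the pericyte sum that follows came from Pdgfrb (means 12.78 in BLM, 9.90 in PBS) and Postn (12.25 and 11.17). Postn is also on the activated fibroblast list. Pericyte markers rose in 7 of 8 cases (4 to 7 over the settings, the lowest without BLM replicate 1), with a summed signal of 12.9 to 13.1 in BLM and 3.94 to 4.11 in PBS, while Enpep, also a pericyte gene, fell. Adventitial fibroblast markers rose in 1 of 9 cases (2 without PBS replicate 2) and fell in 4.

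Macrophage markers, which bear on Plin2, rose in 7 of 10 cases and fell in 1. Cd68 rose by 2.44 and Adgre1 by 1.32, while Lyz2, which alveolar type 2 cells also make, fell by 1.14 and set the summed signal, 309 to 320 on the BLM arrays and 636 to 703 on the PBS arrays. Of 7 neutrophil markers, 3 of them below the median level, 3 rose, none fell and 4 did not pass. Mmp8 rose by 2.52 and Retnlg by 0.72. Among those that did not pass, Csf3r stood at 0.23, Cxcr2 at -0.10 and Ly6g at 0.61. S100a8 stood at 0.65 (adjusted p = 0.0342), a call that ended without BLM replicate 1 (0.137), BLM replicate 2 (0.0843) or PBS replicate 2 (0.0616), and S100a9 did not pass, at 0.34 (adjusted p = 0.0762). Alveolar type 2 markers fell in 8 of 9 cases, and their summed signal was 1586 to 1652 in BLM and 2119 to 2205 in PBS. Of 10 alveolar type 1 markers 2 rose and none fell, with Ager at 0.31 (adjusted p = 0.0734). Endothelial markers rose in 3 of 9 cases (1 without BLM replicate 1) and fell in 1 (2 without PBS replicate 1), with Pecam1 at 0.21 (adjusted p = 0.146).

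The remaining lists were those of ciliated and club cells, where 7 of 7 fell, and mesothelium, where 4 of 6 rose. Of smooth muscle and myofibroblast markers 2 of 10 rose and 3 fell. On the lymphocyte list 2 of 6 rose and 4 did not pass. Ptprc, the gene of CD45 and so not limited to lymphocytes, rose by 0.94. The other was Cd3g, at 0.30 (adjusted p = 0.0467 by limma), a call that ended with the replicate block (0.0824), the trended robust prior (0.0614), median centring (0.0623) or cyclic loess (0.0578). When any 1 array was left out, 1 smooth muscle marker rose and 1 fell, and 1 lymphocyte marker rose. Acta2, smooth muscle actin, stood at 0.07 without passing and reversed to -0.10 with cyclic loess.

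**Figure D4:**
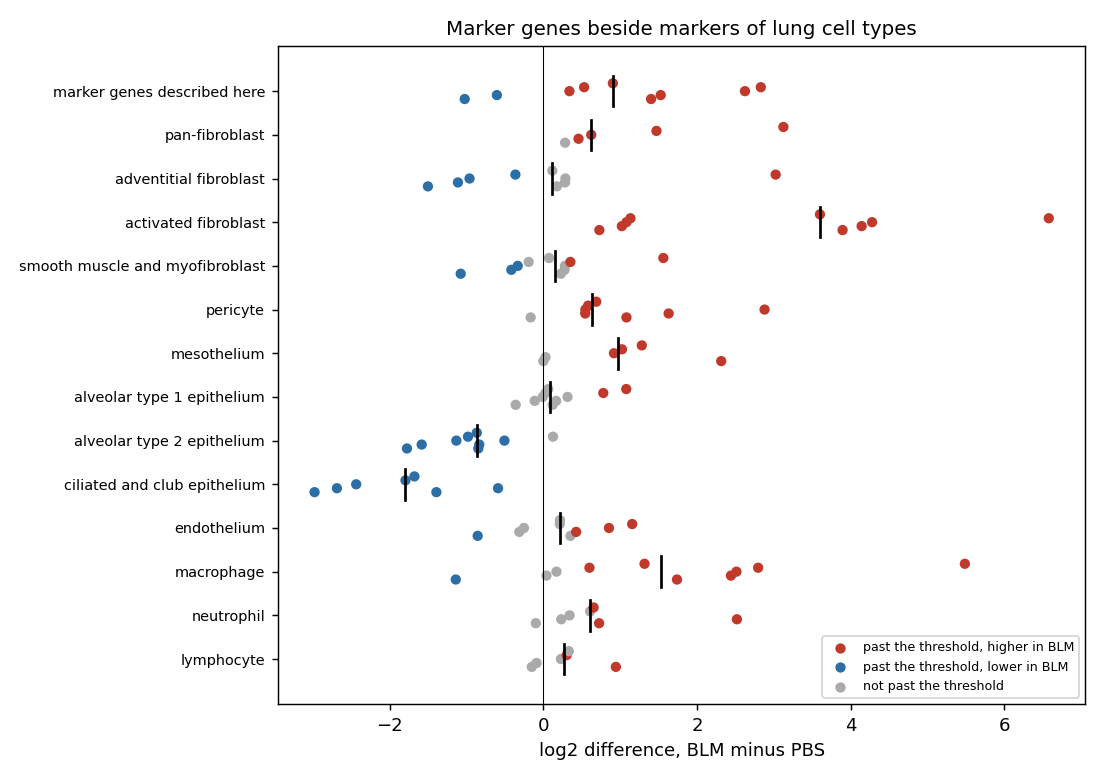
Log2 difference, BLM minus PBS (horizontal axis), of the 9 marker genes and of markers of 13 cell types or states (rows); each point is a gene, coloured by its limma call, and black bars are list medians. Activated fibroblast markers have the highest median, 3.60, and ciliated and club cell markers the lowest, -1.80.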

How the data were processed

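The table holds log2 expression values per transcript cluster, which the authors deposited. The submitters' processing notes name RMA, a method of background correction, quantile scaling and probe summary, and the program Affymetrix Expression Console. The sources used here give no program version and no array build, nor say why some values exceed a 16-bit scanner's range. Of 72688 features, 30604 clusters were annotated to 1 gene symbol. Symbols were updated through Entrez identifiers for 827, and the highest-mean cluster per gene was kept (30142 genes). No dim genes were removed.

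BLM was compared with PBS with lmFit and eBayes of limma 3.58.1 under R 4.3.3 (two-sided, 2 residual and 3.33 prior degrees of freedom), with Benjamini-Hochberg adjustment over 30142 genes and a threshold of 0.05, after the script was tested on simulated data. The median standard error was 0.0969, and the number of arrays limits the precision. List sums add linear signals (antilog of the log2 value) divided by 1000.

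The marker genes, the gene lists and the tests were chosen with earlier results of these data known. Named were the 9 markers, up to 5 genes per list with the largest differences among those that passed, a fixed set of partner genes whatever their result, the first listed cell type markers, and the 2 nearest genes of each marker that differed by at least 1 log2 unit. Other genes, such as those given for not passing and relatives of a marker, were named after their values were seen. Alternatives were median centring, cyclic loess, a trended robust prior, removal of dim genes, averaging a gene's clusters, omission of each array, a block for replicate number and, added after seeing the data, leaving out genes of the X and Y chromosomes.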

Additional observations from a re-analysis of the deposited data

How the results depend on the processing

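Among the 9 marker genes, 85 of 99 values under the other settings kept their direction and call, 14 kept the direction without the call, and none changed sign. The 14 belonged to Npnt, G0s2 and Inmt; Scn3b, Gyg, Tcf21, Plin2, Limch1 and Enpep kept their calls in all 11 settings. With 1 array left out, 5 to 6 of the 9 rose and 1 to 2 fell, and 4003 to 5956 of all genes passed, against 7629 with every array; the lowest was without BLM replicate 1, and 4379 passed without BLM replicate 2. Such fits have fewer samples, and the lone array of a group is assumed to vary like the other group.

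Replicate numbers gave no sign of pairing: deviations of same-numbered arrays correlated at 0.014. With the replicate number as a block, 6 marker genes rose, 2 fell, Npnt lost its call (adjusted p = 0.0617) and 6742 genes passed. Cyclic loess left 5 rising and 2 falling. Without the X and Y chromosomes 7 rose and 2 fell. Differences near 0 changed sign for genes that had not passed: Pparg (-0.115 to 0.113 with 1 array left out), Hopx (-0.0486 with the mean of clusters, -0.0448 to 0.168 with 1 array left out), Sftpc (-0.0238 with cyclic loess, -0.0276 to 0.277 with 1 array left out) and Acta2 (-0.0997 with cyclic loess). The cause was not tested.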

Other observations

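The Y-linked transcripts that separated the BLM from the PBS arrays also differed within the PBS group. Eif2s3y lay at 5.99 and 6.88 on PBS replicates 1 and 2, Uty at 6.19 and 6.84 and Kdm5d at 5.74 and 6.07, and on the BLM arrays these genes lay at 9.08 and 9.05, 9.09 and 8.83, and 8.06 and 8.02. The PBS values of these 3 genes lay around 6.03, the median of gene levels, while Xist was high on both PBS arrays. PBS replicate 2 was the higher PBS array for these 3 genes. The same held for 6 of the 9 alveolar fibroblast markers and for 47.2% of all genes, and a link between the Y-linked transcripts and the markers was not tested.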
